A study of Mus musculus with 2 samples.

Results

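Among cells sorted from mouse ankle synovium as myeloid cells, 75 of 2847 carried a fibroblast transcript profile. They were selected on the UMIs (unique molecular identifiers, which count captured RNA molecules) of 4 connective-tissue matrix genes: a cell was taken when Col1a1, Col1a2, Col3a1 and Dcn together gave at least 20 UMIs. Of these fibroblast-like cells, 64 came from the untreated library, 3.91% of its 1637 cells (exact Clopper-Pearson 95% interval 3.02 to 4.97%). The other 11 came from the library made 7 days after clodronate liposomes, 0.909% of its 1210 cells (0.455 to 1.62%).

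The animals were CD45.2 B6 mice carrying CD45.1 B6 bone marrow (CD45.1 B6 --> CD45.2 B6 BMC, where BMC is a bone marrow chimera), made with the ankle kept out of the irradiation field, so that the joint retained host cells, and the tissue was ankle joint synovium. The steady-state group was untreated, and the day 7 group had received 200 µL of clodronate liposomes retro-orbitally, a reagent that kills phagocytes which take it up. The sort kept live CD45+ CD11b+ cells that lacked CD177, Ly6C, MHCII, CD64, SiglecF and Ly6G, and these were read by CITE-seq, which counts RNA and barcoded antibodies in the same droplet. There was 1 library per group; age, sex and the number of animals in a library are not given in the sources used here, so no difference between the libraries has a replicate check and none was tested. Intervals are at the 95% level and cover only counting error; shares have exact Clopper-Pearson bounds, and ratios have conditional exact Poisson bounds that treat every UMI as independent.

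Synovium is lined by a thin layer of macrophages and fibroblasts that faces the joint fluid, over a looser sublining rich in vessels and collagen. Lining fibroblasts secrete lubricin, the product of Prg4, and hyaluronan, which lubricate the joint. Sublining fibroblasts make collagen and proteoglycan matrix, and many carry CD90 (Thy1) and CD34. Fibroblasts of both layers normally lack CD45 and CD11b, the antigens on which these cells were gated, so the antibody counts read a property that the selection on RNA did not use.

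The antibodies on which the results turn are shown with the oligonucleotide barcodes by which they were counted, as listed in the deposited feature table, 5′ to 3′. CD45.1 and CD45.2 are allelic forms of a leukocyte antigen, CD11b is a myeloid integrin chain, CD90.2 and CD90.1 are allelic forms of the Thy1 protein, CD140a is the PDGF receptor encoded by Pdgfra, and podoplanin is a fibroblast surface glycoprotein.
CD45.1: cctatggacttggac
CD45.2: caccgtcattcaacc
CD11b: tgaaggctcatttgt
CD90.2: ccgatcagccgttta
CD90.1: agtatgggatgcaat
CD140a: gtcattgcggtccta
Podoplanin: gggcgatttagtgtg
The barcodes of each allele pair differed from each other at 11 of 15 bases, and no pair among the 92 antibodies differed at fewer than 4.

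The 4 matrix genes separated the cells with few in between. At steady state the summed UMIs of a selected cell ranged from 22 to 2077 with a median of 254.5, and at day 7 from 50 to 448 with a median of 149. The members nearest the threshold held 22, 28 and 37 UMIs at steady state and 50, 59 and 85 at day 7, and the nearest cells outside it held 19, 12 and 11, and 19, 17 and 13. Of the remaining cells, 91.7% at steady state and 97.8% at day 7 had no UMI of any of the 4 genes. Median depth was 10366 RNA UMIs in the selected cells and 9555 in the others at steady state, and 6068 and 8355 at day 7, so the 11 day 7 cells were shallower. The libraries shared 0 cell barcodes. Doublets were kept, as the selection prescribed, and Scrublet called 1 of the 64 and 0 of the 11 a doublet.

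**Figure D1:**
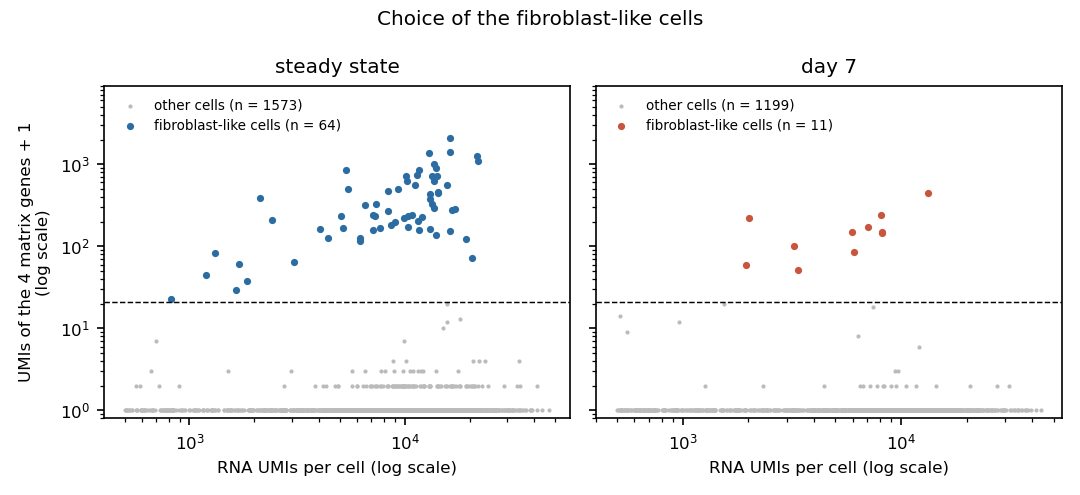
Summed UMIs of Col1a1, Col1a2, Col3a1 and Dcn plus 1 (y axis, log scale) against RNA UMIs (x axis, log scale), 1 point per cell, for each library. The dashed line is the threshold of 20 UMIs; 64 steady-state and 11 day 7 cells lie above it, and most of the others sit at 0 UMIs.

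The cells were then described by marker lists. These were chosen with earlier results of these data known, so they are no independent check of the label. The fibroblast list held the 4 selecting genes and 11 others, and in the untreated library each of the 15 was detected in at least 25% of the cells. All 10 lymphocyte genes were at 0 UMIs in both libraries, and 3 of 11 endothelial genes had UMIs at steady state, at 10.8 CPM in sum, with Pecam1 and Cdh5 at 0. Other lists were partly present. Of the mural list 8 of 11 genes had UMIs, at 142 CPM against 119 in the other cells, of which Pdgfrb, a receptor that fibroblasts also carry, gave 50 UMIs in 27 cells while Mcam was at 0. The Schwann and nerve sheath list stood at 3159 CPM against 124, with 7 of 9 genes detected and at least 10 UMIs in 37 of 64 cells; 1969 of its UMIs were Myoc and 55 Scn7a, a sodium channel gene found in 21 cells, while Sox10 was at 0. The adipocyte list stood at 428 CPM against 164, with 275 UMIs of Lpl (lipoprotein lipase), 2 of Fabp4 and none of Adipoq. The chondrocyte and tendon list, which includes Prg4, stood at 11120 CPM against 7.2, with 12 of 16 genes detected and Acan at 0. Pdgfra, the receptor for platelet-derived growth factor that marks fibroblasts, was detected in 55 of 64 and 11 of 11 cells. Ptprc, which encodes CD45, gave 10 UMIs in all at steady state, in 4 cells, and 0 at day 7. Set against the other steady-state cells, 20.2% of the 2023 genes with at least 100 CPM (UMIs per 1000000) in either group were at least 2-fold higher in the fibroblast-like cells and 26.4% at least 2-fold lower. That contrast is the one the selection used, so these values describe the cells and support nothing.

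The 25 genes that stood highest over the other cells included matrix and secreted proteins, and also Crabp1, a cytoplasmic retinoic acid binding protein, and Scara5, a membrane receptor. Apod, a lipid-binding lipocalin, stood at 7136 CPM against 1.88 in the others, Clec3b (tetranectin) at 2937 against 1.45, and Fstl1, a secreted glycoprotein, at 1668 against 0.605. The proteoglycan gene Lum was at 1407 CPM against 0.545, and Dpt, whose product binds collagen and decorin, at 1044 against 0.424. Most of these transcripts in the steady-state library lay in the 64 cells: they held 99.4% of its Col1a1 UMIs, 99.1% of Dcn, 98.6% of Prg4 and 99.2% of Myoc. Sparc, an extracellular collagen-binding protein, was an exception, with 30.9% of its UMIs in the fibroblast-like cells and 1068 CPM in the macrophages of the same library (cells with at least 20 C1qa, C1qb and C1qc UMIs).

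Prg4 was concentrated in very few cells. Only 24 of the 64 steady-state cells had a Prg4 UMI, with a median of 0, and 2 cells held 3087 and 2080 of the 5587 UMIs. The other 22 Prg4-positive cells held 420 together, and the next highest cell had 135. The 2 extreme cells had nearly all the UMIs of other genes listed for the lining layer: 371 of 382 for Htra4, a secreted serine protease, 83 of 83 for Clic5, a chloride channel family member, 78 of 92 for Hbegf, an EGF receptor ligand, and all 11 for Tmem196. They had 5 and 6 UMIs of Col1a1, 3 and 1 of Col3a1, and none of Apod, Myoc, Igfbp6 or Comp, while Dcn stood at 63 and 111. Has1, which makes hyaluronan, did not follow this pattern: it was detected in 39 of 64 cells, and the 2 cells held 67 of its 400 UMIs. Cd55, another lining marker, was likewise spread over 37 cells, and the 2 cells held 14 of its 247 UMIs.

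Cells with at least 20 Prg4 UMIs per 10000 (7 cells) were set beside those with fewer than 5 (53 cells). Cells between (4) entered neither group, and 5 members lay within 1.5 times of a bound. These are cells of 1 library, so the comparison is a description, and Prg4 itself (10.35 on the log2 scale) only restates the split. Of 1762 genes, 12.3% were at least 2-fold higher and 11.9% at least 2-fold lower in the Prg4-high cells, with a median log2 ratio of 0.07. Restricted to cells without a C1qa or Lyz2 UMI, the comparison was of 1 cell with 15 and gave 585 higher genes, against 217. Of 11 lining genes tested, Prg4 among them, 7 were at least 2-fold higher and 1 lower. Of 20 sublining genes, 0 were higher and 11 at least 2-fold lower. Clic5 was at least 150-fold higher, and Rgcc, a cell-cycle regulator, stood at 1970 CPM against 64.4 (30.6-fold). Ccn2, a matricellular protein, stood at 1780 CPM against 91.7 (log2 4.28, 3.80 to 4.78). Fn1, encoding fibronectin, was at 6102 CPM against 2265 (log2 1.43).

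On the low side, Postn, encoding the matrix protein periostin, stood at 10.6 CPM in the Prg4-high cells and 1403 in the Prg4-low cells, where 37 of 53 cells had it. The chemokine genes Ccl11, Ccl7 and Cxcl1 were at 0, 0 and 1 UMIs in the 7 cells. In the Prg4-low cells, Ccl11 was at 614 CPM (at least 19.3-fold higher), Ccl7 at 589 CPM (at least 18.5-fold) and Cxcl1 at 691 CPM (log2 for Prg4-high over Prg4-low -6.03, -11.33 to -3.54). Apoe, the lipid carrier, stood at 42.4 CPM against 1198 (log2 -4.82, -6.70 to -3.46).

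The lining pattern rested on the 2 extreme cells. In the 5 Prg4-high cells left without them, Prg4 was at 6586 CPM, but Htra4 and Hbegf each had 1 UMI, and Clic5 and Tmem196 had 0. The log2 ratios of those 5 cells to the Prg4-low cells became -0.092 for Htra4, -0.23 for Hbegf and -0.65 for Higd1a, a mitochondrial protein gene, which had been 3.93 with the 2 cells in. In these 5 cells Comp, cartilage oligomeric matrix protein, was at 3000 CPM, Myoc, which encodes myocilin, at 10520 and Igfbp6, an insulin-like growth factor binding protein, at 4958, so Prg4 was here found in cells that also held sublining or tendon-type transcripts. A single cell held 485 of the Myoc UMIs.

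Sublining genes were broad. Each of the 25 listed genes was detected in the untreated library, 22 of them in at least 25% of the cells. Gsn, an actin-severing protein, was present in 64 of 64 cells (11 to 743 UMIs, median 180). Ly6a, which encodes the Sca-1 surface antigen, was present in 61, Clec3b in 59, Igfbp5 in 58 and Cd34 in 56. Once the 2 Prg4-extreme cells and the 4 cells with at least 10 Bglap UMIs described below were set aside, 54 of the 58 remaining cells held UMIs of all of Clec3b, Cd34 and Ly6c1, and at day 7 so did 8 of 11. Pi16, a marker of adventitial fibroblasts, was patchier: it was present in 37 of 64 cells with a median of 2.5 and a maximum of 101 UMIs. Dpp4, often found with it, was present in 18. Thy1 was present in 29 of 64 cells with a median of 0 and a maximum of 10 UMIs, and in 3 of 11 at day 7.

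Across all 64 steady-state cells, the Prg4-extreme and Bglap cells included, single genes varied strongly. Apod ranged from 0 to 1465 UMIs with a median of 12, and the highest cell held 31.7% of the total. Comp, a cartilage and tendon matrix protein, was found in 30 cells and ranged up to 221 UMIs, the highest in a Bglap cell. Myoc was found in 46. At a level of at least 10 UMIs per 10000, Comp marked 22 cells and Igfbp5 37, with 7 cells in both. Spearman's rho between Comp and Igfbp5 across the 64 cells was -0.50, that between Comp and Dcn 0.47, and that between Igfbp5 and Clec3b 0.47. Col1a1 and Col3a1, both collagen chains used for the selection, had 0.77. These coefficients describe cells of 1 library that share its depth and background RNA, and no p is given.

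A small set of cells carried bone genes. Bglap, which encodes osteocalcin, reached 96, 91, 68 and 44 UMIs in 4 steady-state cells. Ibsp, bone sialoprotein, stood at 13, 8, 188 and 0 in the same order. All 4 cells also had Comp, at 11, 40, 221 and 71 UMIs, and none of them had a UMI of Clec3b, Pi16, Cd34, Ly6c1 or Thy1. The cell with 44 Bglap UMIs was the deepest of the 64, at 21963 RNA UMIs. It alone held all 194 UMIs of Crabp1, a retinoic acid binding protein gene, and all 66 of Chad, which encodes chondroadherin, a cartilage protein, and it held 47 of the 100 of Fmod, fibromodulin. At day 7, Bglap, Ibsp, Chad and Crabp1 were at 0 in all 11 cells.

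**Figure D2:**
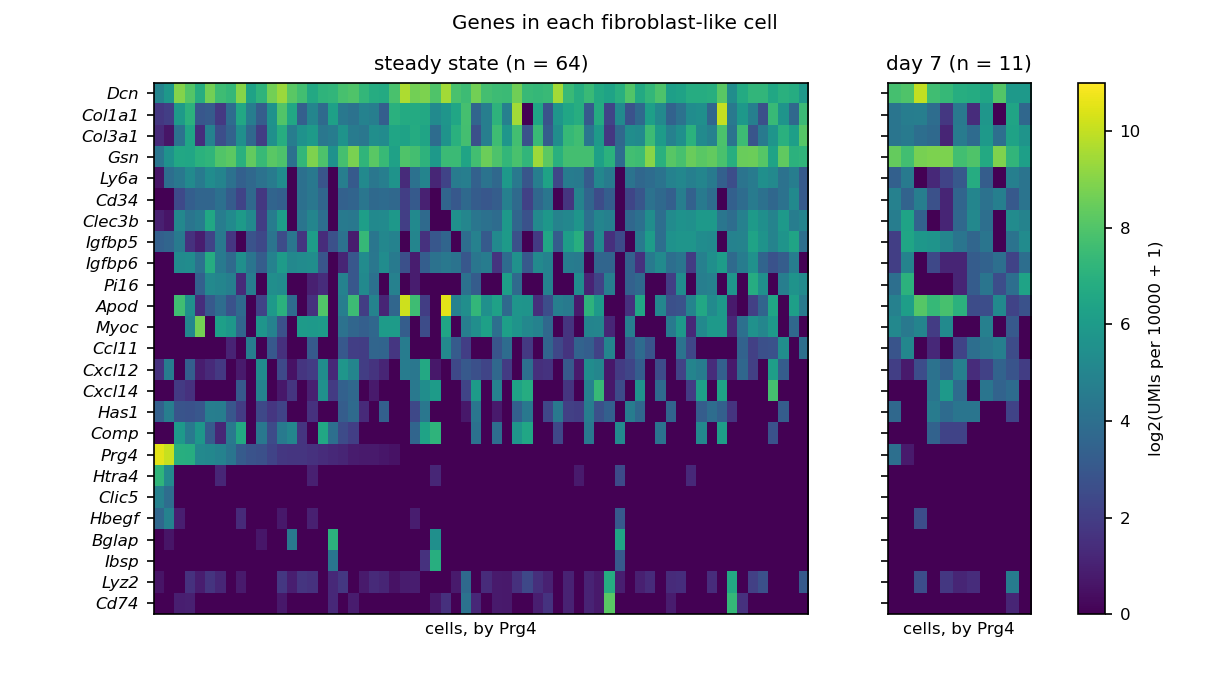
Levels of 25 genes in each fibroblast-like cell, as log2 of UMIs per 10000 plus 1 (colour), with cells as columns ordered by Prg4, for the 64 steady-state and the 11 day 7 cells. The 2 leftmost steady-state cells hold most Prg4, Htra4, Clic5 and Hbegf, 4 cells stand out for Bglap, and Gsn is present in every cell.

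Several secreted factors known to act on myeloid cells were present. Cxcl12, a chemokine that retains leukocytes, stood at 1021 CPM against 2.06 in the other steady-state cells. Ccl11, which attracts eosinophils, stood at 494 CPM against 0 UMIs there. Csf1, the macrophage growth factor, was found in 41 of 64 cells (167 CPM against 2.12), while Il34, the other ligand of the same receptor, had 2 UMIs. Gas6, a bridging ligand of the TAM receptors, was at 473 CPM against 334 in the others. Igf1 stood at 982 CPM against 72.1, and complement C3 at 1184 against 47.3. Serping1, which inhibits the C1 complex, was detected in 61 cells, at 2350 CPM against 2.54. These contrasts share the selection and are descriptions. Between libraries, Csf1 was at 222 CPM at day 7 (log2 0.41) and Cxcl12 at 829 (log2 -0.30, -0.72 to 0.09), and both intervals include 0.

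The day 7 cells were compared with the steady-state cells by summed counts, 67561 UMIs in 11 cells against 647590 in 64. In such sums, fewer cells of a kind and less RNA per cell cannot be told apart. Among 1906 genes with at least 100 CPM in either, 15.1% were at least 2-fold higher at day 7 and 8.39% at least 2-fold lower, with a median log2 ratio of 0.13. In cells without a C1qa or Lyz2 UMI, 245 genes were at least 2-fold lower, against 160 in all. Lining genes were mostly lower: of 10 tested, 6 were at least 2-fold lower and 1 higher, with a median of -1.35. Of the steady-state UMIs, the 2 Prg4-extreme cells held 371 of 382 for Htra4, 83 of 83 for Clic5 and 78 of 92 for Hbegf. The list was not counted again without these 2 cells. Prg4 was found in 24 of 64 cells at steady state and in 2 of 11 at day 7, with 5 and 1 UMIs, or 8627 against 88.8 CPM (log2 -6.60, -8.05 to -5.48). Both Prg4-extreme cells were steady-state cells, and without them the log2 ratio was -2.96. Htra4 was at 590 CPM and at 0 (at least 13.3-fold lower), and without the 2 extreme cells its remaining UMIs were too few to give a direction.

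Sublining genes were not mostly lower. Of 21 tested, 3 were at least 2-fold higher at day 7 and 1 lower, with a median of 0.28. Neither count exceeded the share over all genes, 15.1% higher and 8.39% lower. Clec3b (2937 and 2990 CPM), Ly6a (2106 and 2087) and Serping1 (2350 and 2353), the last from the complement list, differed by under 0.1 on the log2 scale. Those past 2-fold were Apoe, Pi16 (1348 and 3552 CPM), Fbn1, encoding fibrillin (493 and 1066), and, lower, Igfbp6 (2095 and 992). Pi16 had 73.8% of its day 7 UMIs in 1 cell, without which it stood at 1162 CPM (log2 -0.21), and Fbn1 without its top cell at 941 (log2 0.93).

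The matrix lists were counted at day 7 beside the shares over all genes, 15.1% at least 2-fold higher and 8.39% lower. Each list had few tested genes, and differences between lists were not tested. The elastic fibre counts and the count of higher matrix glycoprotein genes lay near those shares. Of the 9 small leucine-rich proteoglycan genes, 0 were at least 2-fold higher and 4 at least 2-fold lower, with a median of -0.74. Bgn, biglycan, was at 760 and 252 CPM (log2 -1.59, -2.39 to -0.90), while Dcn was at 22125 and 18013 (log2 -0.30, -0.38 to -0.21). Of 6 fibrillar collagens tested, 0 were higher and 2 lower: Col1a1 was at 6501 and 2620 CPM (log2 -1.31, -1.54 to -1.09) and Col3a1 at 5913 and 2886 (log2 -1.03, -1.25 to -0.83). Both belong to the genes that chose the cells. Of 10 elastic fibre genes, 1 was at least 2-fold higher and 1 lower, with a median of 0.29, and of 6 other collagens 0 were higher and 1 lower, with a median of 0.29. Of 15 matrix glycoprotein genes, 2 were higher and 4 lower, with a median of -0.59. All 6 chondrocyte and tendon genes tested were at least 2-fold lower, Prg4 among them, but few cells carried much of this list. The 2 highest steady-state cells held 92.5% of the UMIs of Prg4, 87% of Fmod and 79.7% of Thbs4. For Cilp and Comp they held 47.4% and 31.8%, and Chad lay in 1 cell. Comp was in 30 of 64 and 3 of 11 cells, at 1751 and 192 CPM (log2 -3.19, -4.10 to -2.41). Postn went the other way, at 1113 and 3271 CPM (log2 1.55, 1.33 to 1.77), in 39 of 64 and 6 of 11 cells, and without its top day 7 cell at 2053 (log2 0.88).

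Icam1, Tnfaip2 and Gadd45b were among the 12 genes named as highest at day 7. Icam1, an adhesion molecule that binds leukocyte integrins, was at 296 CPM in 35 of 64 cells and 1273 CPM in 7 of 11 (log2 2.10, 1.72 to 2.48). Tnfaip2, a TNF-inducible gene, was at 174 and 903 CPM (log2 2.37, 1.90 to 2.83), and Gadd45b, a stress-induced gene, at 94.2 and 533 (log2 2.50, 1.86 to 3.12). Cxcl1, a neutrophil chemokine, stood at 568 and 1569 CPM (log2 1.47, 1.14 to 1.78), and Ccl11 at 494 and 1184 (log2 1.26, 0.89 to 1.62). Of 9 chemokine and cytokine genes tested, 3 were at least 2-fold higher (Cxcl1, Ccl2 and Ccl11) and 0 lower. None of the 3 stayed past 2-fold without the day 7 cell that held most of its UMIs: the log2 ratios became 0.78 for Cxcl1, 0.43 for Ccl11 and -0.85 for Ccl2. Of 16 immediate early and heat shock genes, 1 was higher and 0 lower, a smaller share than the 15.1% over all genes, with 8 above and 8 below a ratio of 1. That gene was Nr4a1 (290 and 844 CPM; log2 0.89 without its top cell). In the other cells of the same libraries, Icam1 was at 152 and 55.2 CPM, Cxcl1 at 81.2 and 9.34, Gadd45b at 103 and 45.3 and Tnfaip2 at 145 and 193. Of those other cells, 849 of 1573 were macrophages at steady state and 127 of 1199 at day 7.

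Much of this rested on single cells. Of the 12 genes named as highest at day 7, 8 had at least 50% of their day 7 UMIs in 1 cell, and 8 had their highest count in the same cell of 8162 UMIs. Kcne4, a potassium channel subunit gene with the largest ratio, had all 22 of its day 7 UMIs there, and Nr4a3, an orphan nuclear receptor gene, had 21 of 23. Without each gene's top cell, 7 of the 12 stayed at least 2-fold higher and 3, Kcne4 among them, gave no ratio. Nr4a3 had a log2 ratio of -0.14. The 7 were Tnfaip2 (1.91), Gadd45b (1.84), Icam1 (1.67), Apoe (1.18), Isg15 (2.07), Trim30a (2.07) and Ptgir (1.77). The intervals of the last 3 included 0. Apoe was at 1109 and 3848 CPM overall (log2 1.80, 1.59 to 2.00), but among the 19 and 6 cells without a C1qa or Lyz2 UMI its log2 ratio was -0.013.

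Single cells also weighed at the low end, where 9 of the 12 named genes had at least 50% of their steady-state UMIs in 1 cell. Without each gene's top cell, 10 of the 12 stayed at least 2-fold lower and 2, Ibsp and Crabp1, gave no ratio. Cd74, the MHC class II invariant chain, gave 731 UMIs in the untreated cells and 1 at day 7 (log2 -6.25, -11.56 to -3.77), with 63.2% of them in 1 cell. Retnla, a gene of alternatively activated macrophages, had 82.7% of its UMIs in 1 cell, and Ibsp 89.1%. Without the cells of high CD11b or Lyz2 described below, Cd74, Retnla, H2-Aa and H2-Eb1 had too few UMIs left to give a ratio.

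**Figure D3:**
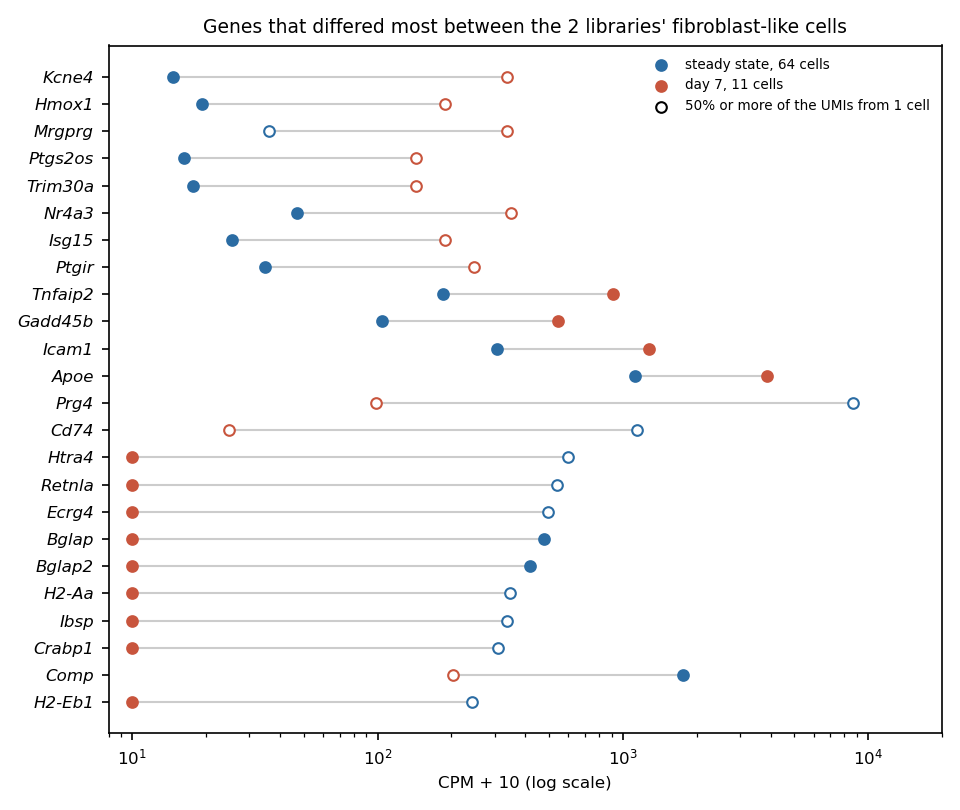
The 12 genes highest and the 12 lowest at day 7 against steady state in fibroblast-like cells, as CPM plus 10 (x axis, log scale) in each of the libraries. Open symbols have at least 50% of their UMIs in 1 cell, which is so for 8 of the 12 higher genes at day 7 and 9 of the 12 lower genes at steady state.

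Myeloid transcripts were common in these cells at the level of a single UMI and rare above it. A C1qa or Lyz2 UMI, transcripts of a complement subunit and of lysozyme in macrophages and monocytes, was found in 45 of 64 steady-state cells (70.3%, 57.6 to 81.1%) and 5 of 11 at day 7 (45.5%, 16.7 to 76.6%). With at least 3 UMIs required, 6 of 64 (9.38%) and 1 of 11 (9.09%) remained. When each cell was thinned to 2000 UMIs, leaving out 6 shallower steady-state cells, 18 of 58 (31.0%, 19.5 to 44.5%) and 3 of 10 had one. Among the monocytes of the same library (at least 10 Plac8 UMIs, median depth 9451.5), of which 6 also met the macrophage definition, 24.5% had a C1qa UMI, against 15.6% of the fibroblast-like cells (median depth 10366). After thinning the shares were 5.72% (3.37 to 9.01%) and 6.90% (1.91 to 16.7%), and these intervals overlap. The source of the C1qa UMIs was not tested. In the other direction, 5.77% of steady-state macrophages held a Dcn UMI, and 0.831% after thinning.

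At steady state 39 of the 45 cells had 1 or 2 UMIs, 3 had 3 to 9 and 3 had at least 10. The 3 highest held 180, 138 and 20 Lyz2 UMIs, and at day 7 1 cell held 19. The cells of 180 and 138 Lyz2 UMIs also held 462 and 224 Cd74 UMIs and 129 and 71 of H2-Aa, a class II chain, and the second held 282 Retnla UMIs; their Dcn counts were 131 and 57. These droplets carried a stromal and a myeloid profile together, and whether each held 2 cells was not tested. In the 61 steady-state cells below 10 Lyz2 UMIs, Lyz2 stood at 94.8 CPM against 10178 in the other cells, Tyrobp at 18.3 against 2046, and Ptprc had 1 UMI.

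The antibodies read most of these cells as unlike the gate they had passed. CD11b counts had a median of 3 at steady state (0 to 184) against 380 in the other cells, and a median of 2 at day 7 (1 to 11) against 116. At least 20 CD11b counts were found in 7 of 64 and 0 of 11 fibroblast-like cells, against 97.9% and 86.2% of the others. The exact upper bound for 0 of 11 is 28.5%. Both CD45 alleles were under 5 counts in 57 of 64 (89.1%) against 2.80% of the others, and at day 7 in 8 of 11 (72.7%) against 18.5%. The antibody to CD45 itself gave no count in any cell of either library, and neither did that to podoplanin, whose gene Pdpn was found in 33 of 64 cells, so those zeros say nothing of these cells. Total antibody counts per cell were lower too, with medians of 124.5 and 1093 at steady state and 153 and 546 at day 7. With counts summed over cells, CD11b was 813 per 10000 antibody counts in the fibroblast-like cells and 3675 in the others at steady state. At day 7 the values were 151 and 2292. The 2 highest of the 64 steady-state cells held 32.0% of the CD11b counts of the 64.

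The 7 CD11b-high cells were not all droplets with myeloid RNA. Their CD11b counts were 184, 172, 170, 166, 110, 103 and 31, and their Lyz2 UMIs, in that order, 0, 180, 5, 2, 138, 0 and 20. In 4 of them CD11b was at least 103 with at most 5 Lyz2 UMIs, but 1 of these 4, the third cell, did hold macrophage RNA. The first was the second Prg4-extreme cell, which had 23 CD45.1 and 124 CD43 counts, 1 Ptprc UMI and no Itgam UMI, the gene of CD11b. The third had 355 counts of CD163, a macrophage scavenger receptor, and 24 of CD45.2, with no Cd163 UMI. It held 6 C1qa, 7 C1qb and 8 C1qc UMIs, which together pass the 20 UMIs that defined macrophages here. An antibody signal of this size with little of the matching RNA was measured in these cells, and its source was not tested.

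Stromal antigens were bound. CD90.2 had a median of 31.5 counts (0 to 492) at steady state and 19 (0 to 459) at day 7, against 1 in the other cells of each library. CD90.1, the allele that B6 mice lack, had medians of 0 and 1, with maxima of 1 and 2, and so gives the background of an antibody with no target. CD140a had medians of 5 (0 to 168) and 10 (5 to 21), against 0 and 1; all 11 day 7 cells had at least 5 counts. The cell with 168 CD140a counts was the first Prg4-extreme cell, which had 4 CD90.2 counts, and the second had 4 and 2. Across the 64 cells Spearman's rho was 0.51 between CD90.2 and Thy1 RNA, 0.37 between CD140a and Pdgfra RNA, and 0.59 between the antibodies themselves, which share each cell's antibody depth; no p is given.

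Ly6C, one of the antigens the gate excluded, also stained these cells, with a median of 6 (0 to 52) against 2 in the other steady-state cells and 11 against 29 at day 7. The steady-state cells held Ly6c1 at 1577 CPM in 56 of 64 cells, against 1.76 in the others, and no UMI of Ly6c2, the monocyte gene of the pair, which was at 158 CPM in the others. CD61 (median 5.5 against 1) and CD36 (3.5 against 1) were also higher at steady state, although Cd36 RNA stood at 4.63 CPM in these cells and 461 in the others. Of 92 antibodies, 5 had a higher median in the fibroblast-like cells at steady state: Ly6C, CD90.2, CD36, CD140a and CD61. At day 7 there were 11: CD90.2, NK1.1, CD357, CD137, CD170, CD140a, CD200r3, CD138, Notch4, CD107a and CD47. Of these 11, only CD90.2 and CD140a had a median of at least 5 counts in the fibroblast-like cells. The rest were lower, CD47 at 2, where CD90.1, with no target, had a median of 1, so a higher median alone does not show binding.

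For some antigens RNA was present and the antibody count was near 0. CD34 had a median of 0 (maximum 3) although Cd34 RNA was in 56 of 64 cells, and CD55 a median of 0 (maximum 10) with Cd55 RNA in 37. CD54, the protein of Icam1, had a median of 6 at steady state and 3 at day 7, where Icam1 RNA was higher; in the other cells CD54 was 13 and 5. Per 10000 antibody counts, summed over cells, the order turned. CD54 was then at 593 against 169 in the others at steady state and 242 against 122 at day 7.

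**Figure D4:**
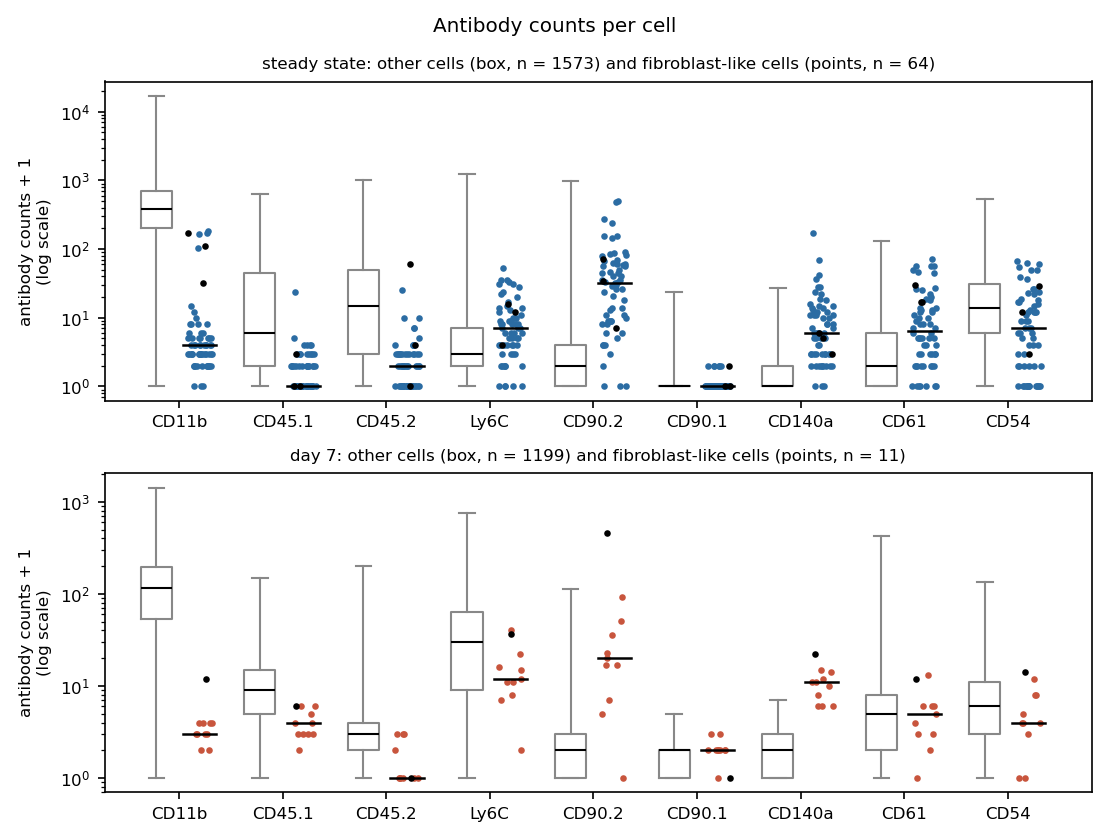
Antibody counts per cell plus 1 (y axis, log scale) for 9 antibodies, with the other cells as a box (median, quartiles and full range) and each fibroblast-like cell as a point, black where it had at least 10 Lyz2 UMIs; short bars mark the medians of the fibroblast-like cells. At steady state CD11b lies at a median of 3 in them against 380 in the others, and CD90.2 at 31.5 against 1.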

How the data were processed

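The 2 libraries were deposited by the authors as matrices of UMI counts (whole numbers) for genes and antibody tags, with a column for every cell barcode. The submitters' processing notes name Cell Ranger 6.1.2, the mm10 build and Seurat 4.4.0, without a role for the last, and the deposited matrices hold 32285 genes and 92 antibodies. Kit chemistry was 10x Genomics single-cell RNA read from the 3′ end, per the labels' protocols. Rows with the same symbol (38 genes) were summed. Cells were kept with at least 500 RNA UMIs, 200 genes and at most 10% mitochondrial UMIs (1637 of 1912 and 1210 of 1277 barcodes); 2 and 1 of the barcodes left out held at least 20 UMIs of the 4 selecting genes. Kept cells held 17169755 and 10983657 RNA UMIs.

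UMIs were summed over cells, scaled to CPM, and compared as log2 ratios where either group reached 100 CPM, with a zero set to 3 counts to give a bound. Folds given as at least use that setting, and their exact interval limits lay nearer to no change. With 1 library per group no test was possible; a gene counts as different at 2-fold. Named genes were those of 36 marker and function lists, the 25 highest in the cells, and the 12 highest and 12 lowest of each comparison among these cells (ranked on whichever interval limit lay closer to 0), without ribosomal, mitochondrial, Gm, Rik and antibody features. Beside these, the cells and genes singled out as extreme (the 2 Prg4 cells, the 4 Bglap cells, CD11b-high cells and top cells) were chosen after their values were seen. The members and lists were chosen with earlier results of these data known. The ratio script was tested on simulated data. Tools were Python 3.11.15, numpy 2.4.6, scipy 1.17.1, pandas 2.3.3, scanpy 1.11.5 for Scrublet and matplotlib 3.10.9. Alternatives varied the threshold, filters, weighting of cells and doublet removal.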

Additional observations from a re-analysis of the deposited data

How the results depend on the processing

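No paired analysis was possible because each group was 1 library. Of 68 alternative values of the shares and gene counts, 59 stayed within the main interval or within 1.5 times the main count; these included the shares of cells under 7 other filters and thresholds. The share with a C1qa or Lyz2 UMI became 9.38% and 9.09% with at least 3 UMIs, and 31.0% at steady state after thinning. Genes at least 2-fold lower at day 7 numbered 160 and became 245 in cells without a C1qa or Lyz2 UMI. Genes higher and lower, 287 and 160, became 52 and 38 with a minimum of 300 CPM, and 1984 and 670 with a minimum of 1 UMI, where 541 and 7851 genes were tested. Genes at least 2-fold higher in Prg4-high cells, 217, became 585 without C1qa or Lyz2 UMIs, where 1 of the 7 Prg4-high cells was left. Of 459 values of single genes and antibodies, 5 reversed. Apoe at day 7 became -0.013 and Cd74 in Prg4-high cells 0.83 (both log2) without C1qa or Lyz2 UMIs. Without the 2 Prg4-extreme cells Htra4 became -0.092, Hbegf -0.23 and Higd1a -0.65. A further 41 gave no direction because a group had too few counts. Scaling antibody counts per 10000 moved all 6 log2 ratios of median counts to the other cells, with the direction kept: at steady state CD90.2 went from 4.02 to 8.01, CD140a from 2.58 to 8.29 and CD11b from -6.57 to -4.02, and at day 7 they became 6.37, 5.20 and -3.79. The settings without the Prg4-extreme cells, the Bglap cells, the cells high in CD11b or Lyz2, or each gene's top cell were added after seeing the data. The day 7 values rest on 11 cells, of lower median depth.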
